A study of Mus musculus with 4 samples.

Results

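This report describes 9 genes of extracellular proteolysis in splenic MDSCs: the matrix metalloproteinase genes Mmp8, Mmp9, Mmp12, Mmp14, Mmp19 and Mmp25, the inhibitor genes Timp1 and Timp2, and the membrane protease gene Adam8. They were taken by symbol from the 53465 genes of the deposited count file, and were chosen by measured values of these same libraries: the lower level of Mmp12 with EGCG and the abundance of Mmp8 and Mmp9. Those levels and the difference between EGCG and control are therefore given as descriptions without a test, for all 9 genes. MDSCs, or myeloid-derived suppressor cells, are myeloid cells of tumor hosts that hold back T cell responses. They came from the spleens of male BALB/c mice that carried tumors of 4T1, a mammary carcinoma line of this strain. By the methods, the mice were 6 weeks old when the 4T1 cells were injected. Every library shares the 4T1 tumor. Cells were collected with beads against Gr-1, an epitope of Ly-6G and Ly-6C, on day 21 by the labels and on an earlier day by the methods, and were then kept for 6 h in control medium (2 libraries) or with EGCG at 5 μg/mL (2 libraries), a polyphenol of green tea. Whether replicates stand for separate mice or for wells of 1 pool is given in neither source, so p-values measure only the spread between these samples, which may be technical. In bulk RNA, fewer cells of a type and less RNA per cell cannot be told apart.

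Matrix metalloproteinases are zinc-dependent endopeptidases that are made as inactive precursors and cut collagens, elastin, proteoglycans and many cytokines once the propeptide is removed. TIMP proteins block the active site of the mature enzymes. Neutrophils store the collagenase MMP-8 in specific granules and the gelatinase MMP-9 in gelatinase granules, whereas macrophages make the elastase MMP-12. ADAM8 belongs to the related ADAM family of membrane-anchored proteases.

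The libraries held 17767318 and 17973695 counts in the control group and 18390385 and 18091684 in the EGCG treatment group, and 14682 genes had enough counts to be tested, all 9 members among them. The neutrophil marker Ly6g had between 17223 and 21752 counts per library, Itgam (CD11b) and the monocyte marker Ly6c2 were also detected, and S100a8 and S100a9 were the 2 largest of the neutrophil markers. Of the fibroblast markers, Lum had no counts and Col1a1 had 0 to 9 counts. Markers of macrophages, B cells and endothelial cells were also detected. The 9 members together took 0.613% and 0.608% of all counts in control and 0.615% and 0.613% with EGCG.

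Levels are given as CPM (counts divided by the library's TMM-scaled total in units of 1e6) and, where genes are compared, as CPM per kb of exonic length. On that scale the members spanned 3 groups: a high group of Mmp9 and Mmp8, a middle group of Adam8, Mmp25 and Timp2, and a low group of Mmp19, Mmp14, Mmp12 and Timp1. Mean levels over the 4 libraries were 872 CPM per kb for Mmp9, 599.7 for Mmp8, 159 for Adam8, 82.1 for Mmp25, 68.2 for Timp2, 14.5 for Mmp19, 13.5 for Mmp14, 3.06 for Mmp12 and 0.736 for Timp1. In each library the genes kept this order, and the lowest library of each gene stood above the highest of the next, except that the ranges of Mmp19 and Mmp14 over the libraries overlapped. When the longest transcript replaced the joined exons as the length, Mmp14 stood at 24.8 and Mmp19 at 15.1 CPM per kb, so their order rests on the choice of length. By CPM, Mmp9 ranked 18 and Mmp8 ranked 52 among the tested genes, Adam8 161, Mmp25 360 and Timp2 703. Mmp14 ranked 2689, Mmp19 3768, Mmp12 6122 and Timp1 14027.

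**Figure D1:**
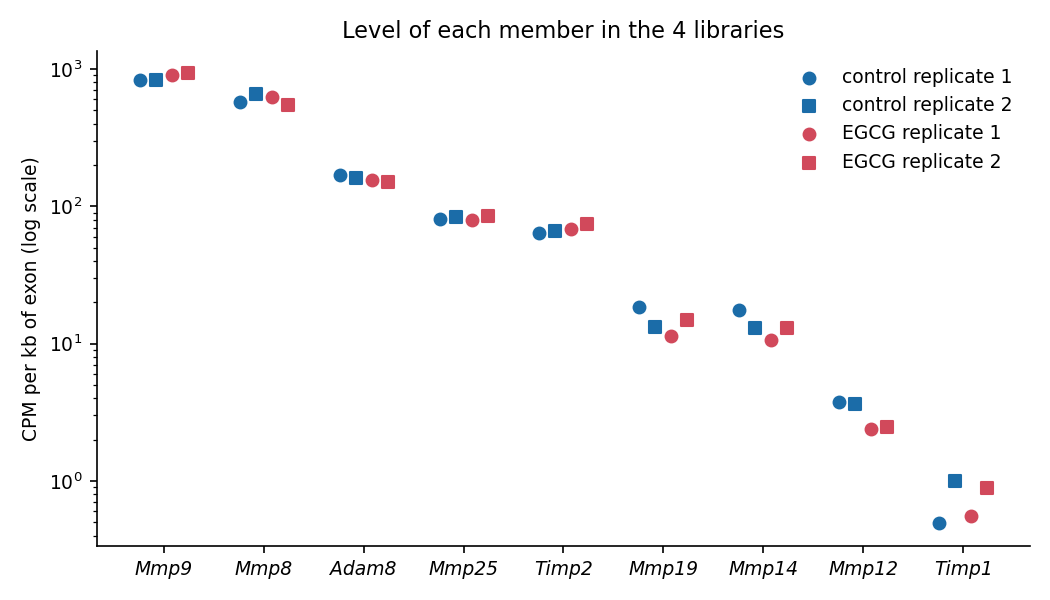
Level of each of the 9 members in CPM per kb of exon (log axis), 1 point per library, with control libraries in blue and EGCG libraries in red. Mmp9 and Mmp8 stand highest and Timp1 lowest; the EGCG points of Mmp12 lie below its control points.

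Mmp9 (ENSMUSG00000017737, chromosome 2 of GRCm38, 164940780 to 164955850) encodes gelatinase B, which cuts denatured collagen and basement membrane collagen. Control libraries held 53479 and 52479 counts of it, and EGCG libraries 57756 and 58709. At 2929 and 2937 CPM in control and 3185 and 3287 CPM with EGCG, both EGCG libraries were higher than both control libraries. The means were 2933 ± 5.61 CPM in control and 3236 ± 71.8 CPM with EGCG (SD, n = 2), and the log2 fold change was 0.14 (standard error 0.08, edgeR 95% interval -0.03 to 0.31). Mmp8 (ENSMUSG00000005800, chromosome 9, 7558456 to 7568485) encodes the neutrophil collagenase, which cleaves fibrillar collagen. Its counts were 25288 and 28305 in control and 27553 and 23724 with EGCG, so the groups overlapped. The log2 fold change of Mmp8 was -0.06 (standard error 0.09, 95% interval -0.26 to 0.14), and without control replicate 2 it was 0.04. Mmp9 exceeded Mmp8 per kb in every library, and the ratio was 1.45 and 1.27 in control and 1.44 and 1.70 with EGCG.

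Among the 23 mouse MMP genes looked up, Mmp8 and Mmp9 together made up 91.5% and 92.4% of the summed CPM per kb in control and 93.3% and 92.3% with EGCG. Mmp25 added between 4.83% and 5.31%, and each of the other MMP genes stayed under the 1.21% that Mmp19 reached in control replicate 1. Lcn2, the gene of lipocalin-2, a protein of neutrophil granules, stood at 798 and 898 CPM per kb in control and 887 and 788 with EGCG, close to Mmp9 itself.

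Mmp12 (ENSMUSG00000049723, chromosome 9, 7344381 to 7369499, plus strand, 7237 bases of joined exons) encodes macrophage elastase. Its counts were 498 and 469 in control and 313 and 319 with EGCG. In CPM these were 27.3 and 26.2 against 17.3 and 17.9, so the groups stood apart by far more than the replicates within either one. The mean was 26.8 ± 0.727 CPM in control and 17.6 ± 0.422 CPM with EGCG (SD, n = 2), which is 0.656 of the control level by the fitted fold. The log2 fold change was -0.61 (standard error 0.10, 95% interval -0.83 to -0.38), and it ran from -0.63 to -0.57 with each library left out. In the fit over all genes by edgeR, an adjusted p under 0.05 marked 1 of the 9 members as lower, namely Mmp12, and 0 as higher, where it marked 0.136% of the 14682 tested genes as lower and 0.0136% as higher. Mmp12 was picked for this difference, so the count is no test of it and nothing is read from it. That mark was absent without a filter on low counts, with a minimum count of 30, with upper-quartile scaling, with the replicate block and with the length correction. The log2 fold change was -0.53 with the last of these, which removes the trend of fold changes with gene length.

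Mmp14 and Mmp19 were lower on average with EGCG, but their groups overlapped. Mmp14 (ENSMUSG00000000957, chromosome 14, 54431612 to 54445364) encodes the membrane-anchored collagenase MT1-MMP, which activates pro-MMP-2. Its counts were 1907 and 1374 in control and 1145 and 1379 with EGCG. Control replicate 1 was high, EGCG replicate 1 was low, and the other libraries of the 2 groups were nearly equal at 76.9 and 77.2 CPM. The log2 fold change was -0.37 (standard error 0.13, 95% interval -0.64 to -0.10), but -0.13 without control replicate 1 and -0.23 without EGCG replicate 1. Mmp19 (ENSMUSG00000025355, chromosome 10, 128790910 to 128800824) encodes a secreted metalloproteinase that cuts basement membrane proteins. It repeated the same order of libraries, with 1190 and 828 counts in control and 733 and 945 with EGCG. Its log2 fold change was -0.26 (standard error 0.14, 95% interval -0.57 to 0.05), and 0.01 without control replicate 1. Exons of Mmp19 share 22.3% of their length with Tmem198b on the other strand, which had 137 to 162 counts, and the counting did not use strand.

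Mmp25 and Adam8 encode membrane-bound proteases of neutrophils. Mmp25 (ENSMUSG00000023903, chromosome 17, 23628311 to 23645277, minus strand) encodes leukolysin, an MMP held on the membrane by a lipid anchor. It was at 428 and 445 CPM in control and 419 and 450 CPM with EGCG, and the groups overlapped fully. The log2 fold change was -0.0045 (standard error 0.08, 95% interval -0.17 to 0.16), the narrowest around 0 among the members with overlapping groups. Adam8 (ENSMUSG00000025473, chromosome 7, 139978932 to 139992562, minus strand) encodes a protease that sheds adhesion molecules from leukocytes. It was at 777 and 739.7 CPM in control and 725 and 701 CPM with EGCG. Its EGCG libraries lay just below its control libraries, and its log2 fold change was -0.09 (standard error 0.08, 95% interval -0.25 to 0.07). With each library left out, this value ran from -0.12 to -0.05.

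Of the 2 inhibitor genes, Timp2 was far more abundant. Timp2 (ENSMUSG00000017466, chromosome 11, 118301069 to 118355740, minus strand) encodes an inhibitor that also bridges MT1-MMP to pro-MMP-2. It was at 248 and 258 CPM in control and 267 and 290.2 CPM with EGCG, higher in both EGCG libraries. The log2 fold change was 0.14 (standard error 0.08, 95% interval -0.02 to 0.30), and it ran from 0.08 to 0.20 with each library left out. Timp1 (ENSMUSG00000001131, chromosome X, 20870166 to 20874735), which encodes the partner inhibitor of MMP-9, had 8 and 16 counts in control and 9 and 14 with EGCG. At this depth its 95% interval, from -1.15 to 1.04 on the log2 scale, is too wide to show a difference smaller than its bounds. The ratio of Timp2 to Timp1 per kb was 129 and 65.7 in control and 123 and 84.4 with EGCG. Timp1 lies within Syn1 on the other strand with no shared exonic bases. The ratio of Mmp9 to Timp2 per kb stayed between 12.5 and 13.1 in the 4 libraries, with the groups overlapping, whereas Mmp8 to Timp2 ranged from 7.35 in EGCG replicate 2 to 9.86 in control replicate 2.

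**Figure D2:**
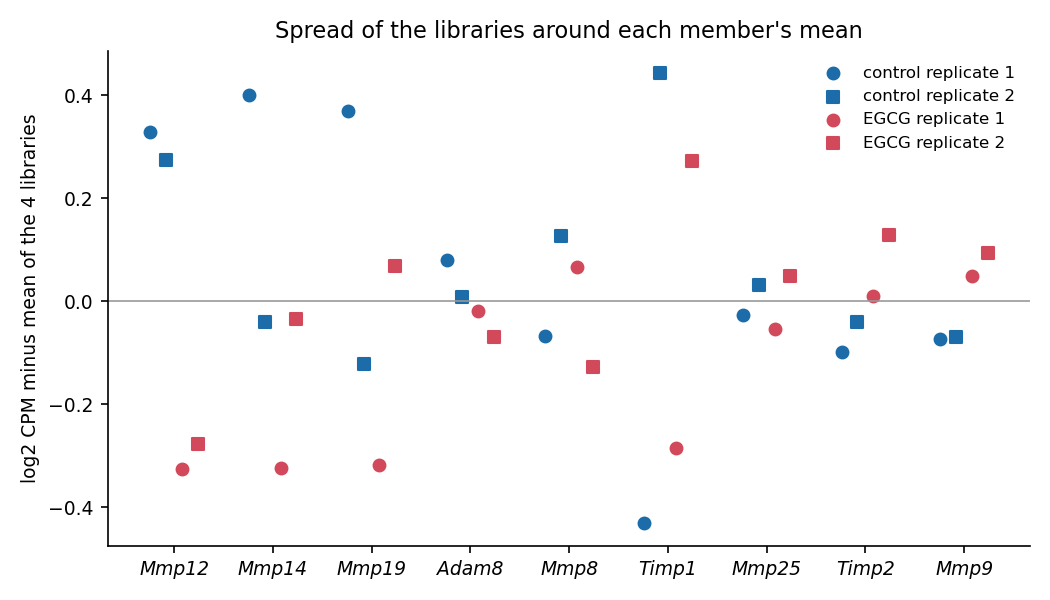
log2 CPM of each member minus its mean over the 4 libraries, 1 point per library (blue control, red EGCG). Mmp12 is split by group with close replicates, whereas Mmp14 and Mmp19 are spread by control replicate 1 (0.40 and 0.37 above the mean) and EGCG replicate 1 (0.32 below for both).

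Across the 9 members, the groups did not overlap for 4: Mmp12 and Adam8 were lower with EGCG and Mmp9 and Timp2 higher. Over all tested genes, the same holds for 21.2% in the lower and 21.5% in the higher direction, and for 42.7% in either, so that 2 of 9 members each way is close to the background. The spread within groups, as an SD of log2 CPM, was 0.02 for Mmp9, 0.04 for Mmp12 and Adam8, 0.06 for Mmp25, 0.07 for Timp2, 0.14 for Mmp8, 0.26 for Mmp14, 0.31 for Mmp19 and 0.52 for Timp1. The median log2 fold change of the members was -0.06, beside 0.0031 for all tested genes.

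**Figure D3:**
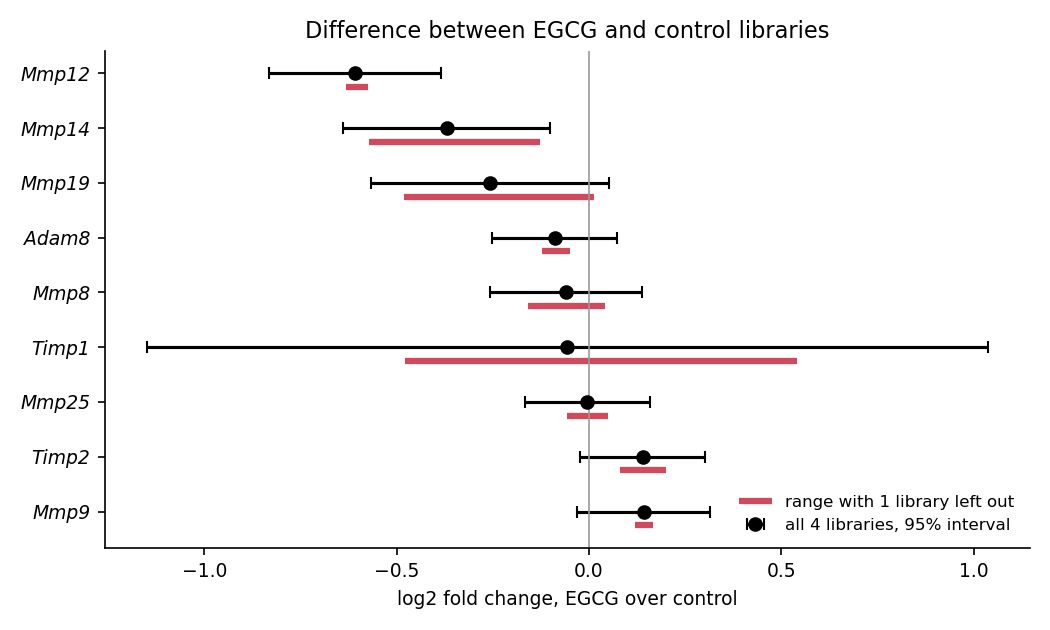
log2 fold change of each member, EGCG over control, with its 95% interval from edgeR (black) and the range of the value when 1 library is left out (red). The range of Mmp12 is narrow, from -0.63 to -0.57, and those of Mmp14 (-0.57 to -0.13), Mmp19 (-0.48 to 0.01) and Timp1 (-0.48 to 0.54) are wide.

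Mmp8 and Mmp12 belong to a cluster of 10 metalloproteinase genes that spans 427 kb of chromosome 9, from 7272514 to 7699585. Levels within this cluster differed from gene to gene. Mmp13, Mmp12, Mmp8 and Mmp27 were counted in every library, Mmp10 had 2 to 6 counts, Mmp3 had 0 to 5, and Mmp1a, Mmp1b, Mmp7 and Mmp20 had none in any library. Mmp8 starts 214 kb from Mmp12 and the ratio of its level per kb to that of Mmp12 was 152 and 180 in control and 263 and 222 with EGCG. Its neighbor Mmp27, which starts 227 kb from Mmp12, had 77 and 68 counts in control and 63 and 52 with EGCG. Mmp13, the collagenase gene upstream of Mmp12, had 281 and 234 counts in control and 140 and 238 with EGCG. Only EGCG replicate 1 of Mmp13 lay apart, and edgeR gave a log2 fold change of -0.44 (standard error 0.20; adjusted p 0.397). Mmp13 stood above Mmp12 per kb, with the ratio of Mmp12 to Mmp13 between 0.495 and 0.826, but Mmp12 was higher, at 4.95 against 4.63 CPM per kb, when the longest transcript set the length. The last exons of Mmp12 share 157 bases with Mmp1b on the other strand, where no counts were assigned.

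**Figure D4:**
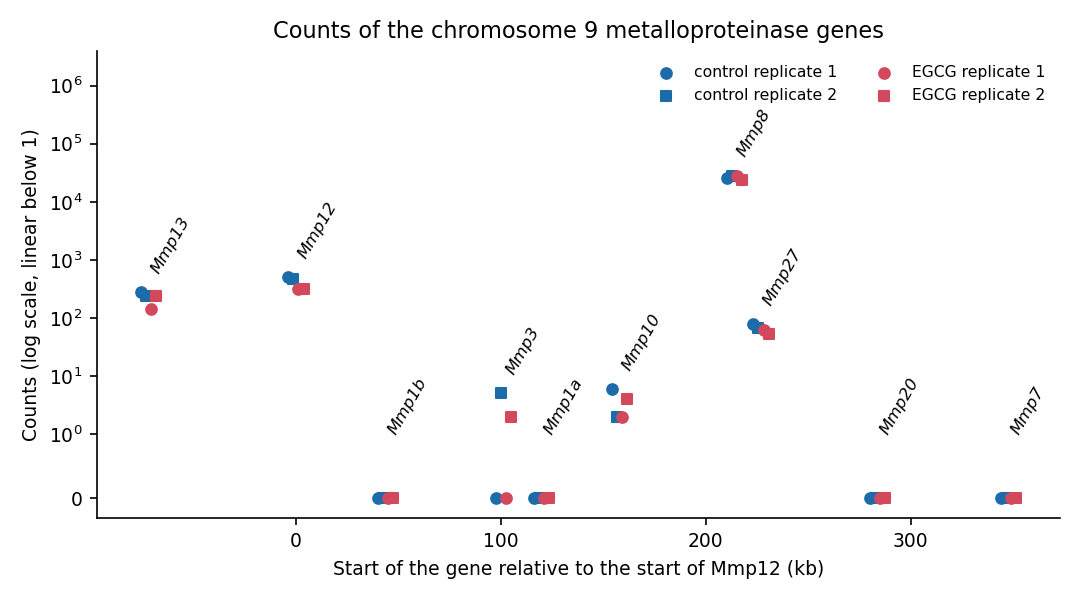
Counts per library (log axis, linear below 1) of the 10 metalloproteinase genes of the chromosome 9 cluster against the distance of each gene's start from that of Mmp12, in kb. Mmp8 has 23724 to 28305 counts, Mmp12, Mmp13 and Mmp27 have between 52 and 498, and the other genes have 0 to 6.

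The sequences before the starts of these clustered genes are shown because neighbors differ widely in level. RefSeq's promoter table (GRCm38.p6) held 7 of the 9 members, all but Mmp9 and Mmp19. The 250 bases before each start are given 5′ to 3′ for Mmp8 (chr9:7558179-7558428), for both starts of Mmp12 (chr9:7344147-7344396 and chr9:7347124-7347373) and for Mmp13 (chr9:7272264-7272513), all on the plus strand. The downstream Mmp12 window lies in an intron of transcripts from the upstream start. Capitals mark matches to the motifs searched.
Mmp8: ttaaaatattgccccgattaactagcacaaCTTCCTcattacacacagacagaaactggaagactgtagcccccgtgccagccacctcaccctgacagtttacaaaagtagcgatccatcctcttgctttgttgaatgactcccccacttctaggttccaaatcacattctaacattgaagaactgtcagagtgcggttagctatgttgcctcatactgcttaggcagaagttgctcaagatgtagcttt
Mmp12 upstream start: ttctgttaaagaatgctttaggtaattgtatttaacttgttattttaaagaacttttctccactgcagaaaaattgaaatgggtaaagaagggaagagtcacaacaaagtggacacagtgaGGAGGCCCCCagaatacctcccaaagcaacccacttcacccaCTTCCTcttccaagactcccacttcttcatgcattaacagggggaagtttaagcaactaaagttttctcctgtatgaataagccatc
Mmp12 downstream start: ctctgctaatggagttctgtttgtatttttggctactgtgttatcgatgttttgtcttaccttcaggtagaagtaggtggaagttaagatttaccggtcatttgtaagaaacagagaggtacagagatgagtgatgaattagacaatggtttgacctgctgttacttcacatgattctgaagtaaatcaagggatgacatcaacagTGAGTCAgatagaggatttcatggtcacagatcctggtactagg
Mmp13: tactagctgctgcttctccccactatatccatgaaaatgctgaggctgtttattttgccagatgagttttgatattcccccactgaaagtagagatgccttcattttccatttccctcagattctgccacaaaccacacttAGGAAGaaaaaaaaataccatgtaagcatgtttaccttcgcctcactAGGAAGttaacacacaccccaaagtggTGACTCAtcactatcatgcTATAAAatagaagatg
The motifs were AP-1 (TGANTCA), ETS (AGGAAG), STAT (TTCNNNGAA), the antioxidant response element (TGACNNNGC) and the kB site, all on both strands, and the TATA box (TATAAA) on the sense strand; no matches overlapped in these windows. Among 32851 promoter windows of the same length, 6.75% held the AP-1 motif, 29.5% ETS, 7.02% STAT, 10.2% the antioxidant element, 5.00% kB and 7.59% TATA. The Mmp8 window held an ETS match 220 bases before the start and no other. The upstream Mmp12 window held an ETS match at 87 and a kB match at 129 bases before the start, and the downstream window an AP-1 match at 44. Mmp13 held an AP-1 match at 35, a TATA box at 16 and ETS matches at 62 and 109 bases before its start. The window of Mmp27, which is not printed, held none of the motifs. In the other members' windows, ETS matches were found for Mmp14, Mmp25 and Timp1, a kB match for Mmp25 and an antioxidant element for Timp2, while the window of Adam8 held none of the motifs. These matches are descriptions of letters and were not tested as binding sites.

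Relatives of the members were read from the same fit, as 114 genes in 9 lists by family or role, of which 73 were tested. In edgeR's quasi-likelihood test with adjustment over all genes, 4 relatives were lower with EGCG and none were higher, where 0.15% of all tested genes passed in either direction. At an unadjusted p under 0.05, 7.02% of all tested genes were lower and 5.22% higher. Of the 17 other MMP genes, 4 were tested (Mmp2, Mmp13, Mmp27 and Mmp28) and 0 passed; 1 had an unadjusted p under 0.05 and 0 passed in DESeq2. All 4 had negative log2 fold changes, with a median of -0.37. Mmp2, the gelatinase that MT1-MMP activates, had only 61 to 67 counts per library. Of the other inhibitors, Reck, a membrane-anchored MMP inhibitor, had 382 to 426 counts, and Timp3, a matrix-bound inhibitor, had 30 and 26 in control and 8 and 16 with EGCG. Timp3 had a log2 fold change of -1.21 (standard error 0.41) and an adjusted p of 0.265 by edgeR, and exons of Syn3 on the other strand share 21.3% of its length. The other TIMP gene, Timp4, had 0 to 2 counts.

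Of 12 other ADAM genes, 9 were tested and 0 passed (1 at an unadjusted p under 0.05, 0 in DESeq2). Adam17, which sheds TNF, was at 60.2 to 62.5 CPM per kb and had a log2 fold change of -0.02 (standard error 0.07). Adam10, a sheddase of Notch, stood at 37.7 to 39.9 CPM per kb. Adam19 had the smallest unadjusted p of the family, with 1974 and 1879 counts in control and 1691 and 1599 with EGCG, a log2 fold change of -0.22 (standard error 0.08) and an adjusted p of 0.259 by edgeR. Of the 19 ADAMTS genes, 9 were tested and 0 passed (0 at an unadjusted p under 0.05, 0 in DESeq2), with a median log2 fold change of 0.02, and only Adamts10 exceeded 1 CPM per kb.

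Of 18 activators and partners, 14 were tested and 1 passed. That gene was Lrp1, whose product takes up MMPs, TIMP complexes and many other ligands from the medium. Lrp1 had 5960 and 4007 counts in control and 2776 and 3134 with EGCG, and control replicate 1 stood far above the others. By edgeR, Lrp1 fell by 0.75 on the log2 scale (standard error 0.13, adjusted p 0.0427). Over the alternatives that kept all libraries, its adjusted p in edgeR ran from 0.00234 with library size only to 0.593 without a filter on low counts. In DESeq2 it was 0.275. Without control replicate 1 the log2 fold change was -0.44. With the length correction it was -0.56, with an adjusted p of 0.0840 by edgeR. Plaur, the receptor of urokinase, stood at 137 to 146 CPM per kb, and Cd44, a docking protein of MMP-9 at the cell surface, at 182 to 207, with log2 fold changes of 0.06 and 0.05. Furin, which processes the propeptide of MT1-MMP, had a log2 fold change of 0.06 (standard error 0.08). Of 6 genes of cathepsins and their inhibitor cystatin C, 0 passed (1 at an unadjusted p under 0.05, 0 in DESeq2). Ctsd, a lysosomal aspartic protease, had 27059 and 27648 counts in control and 32011 and 32605 with EGCG, a log2 fold change of 0.25 (standard error 0.08) and an adjusted p of 0.230 by edgeR.

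Substrates of the enzymes were read as a further list. Of 16 genes of matrix proteins that metalloproteinases cut, 9 were tested, and all 9 were lower in both EGCG libraries than in either control library, where 21.2% of all tested genes were. Col4a1 and Col4a2, the chains of basement membrane collagen, and Vcan, the proteoglycan versican, passed the test. Col4a1 had 412 and 393 counts in control and 191 and 199 with EGCG, Col4a2 331 and 317 against 188 and 183, and Vcan 2985 and 3051 against 2057 and 2190. Their log2 fold changes were -1.04 (standard error 0.12), -0.80 (0.12) and -0.50 (0.08), with adjusted p of 0.00284, 0.0245 and 0.0245 by edgeR. The median log2 fold change of the list was -0.60, beside 0.0031 for all tested genes. Earlier results of these data were known when the list was written, so its direction is not independent evidence. Fn1, which encodes fibronectin, had 8952 and 5426 counts in control and 3950 and 4698 with EGCG, with an adjusted p of 0.0870 by edgeR. Beside this list, all 4 tested endothelial markers had negative log2 fold changes, with a median of -0.81, and 4 of 4 did not overlap between groups. All 10 macrophage markers also had negative log2 fold changes, with a median of -0.29, and 5 were lower without overlap. Of all tested genes, 21.2% were lower without overlap. In edgeR, 0 markers of either list passed the threshold, while DESeq2 called 2 macrophage markers lower. The part of these cells in the levels of the substrate genes was not tested. Elastin itself, the namesake substrate of MMP-12, had 0 to 3 counts of Eln. Over the alternatives that kept all libraries, the adjusted p of Col4a1 ran from 7.92e-06 in DESeq2 to 0.312. That of Col4a2 ran from 0.00252 in edgeR with library size only to 0.525, and that of Vcan from 0.000177 in DESeq2 to 0.562. Each highest value came from edgeR without a filter on low counts. With the length correction, the log2 fold change of Vcan was -0.34, with an adjusted p of 0.145 by edgeR. Those of Col4a1 and Col4a2 were -0.96 and -0.73, with adjusted p of 0.00211 and 0.0495 by edgeR.

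The AP-1 subunit genes, 7 of 7 tested, had a median log2 fold change of -0.02 and 0 passed (0 in DESeq2). At an unadjusted p under 0.05 in edgeR, 1 was lower, Fosb, and 1 was higher, Jund. Fosb had 173 and 181 counts in control and 59 and 147 with EGCG. Jund had 1802 and 1799 in control and 1913 and 2220 with EGCG. Junb, the most abundant per kb, was at 185 to 216 CPM per kb with overlapping groups. Of the 14 genes of specific and gelatinase granules, which are stored with MMP-8 and MMP-9, 0 passed, with a median log2 fold change of 0.07. At an unadjusted p under 0.05, 1 was lower and 1 higher, and 0 passed in DESeq2. Ltf had a log2 fold change of -0.07 (standard error 0.08), Camp 0.13 (0.09) and Ngp 0.13 (0.09), beside -0.06 for Mmp8 and 0.14 for Mmp9.

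Markers of some other cells were also lower with EGCG on average. The 10 macrophage markers all had negative log2 fold changes, with a median of -0.29, and their summed level was 594 and 590.1 CPM in control and 483 and 536 CPM with EGCG. None passed edgeR's test (4 at an unadjusted p under 0.05), while DESeq2 called 2 of them lower, of 50 genes that it called lower in all. The summed level with EGCG was 81.7% and 90.6% of the control mean, while Mmp12 was at 64.5% and 66.7%. Adgre1 and Cd68 had the highest CPM of the list in every library, so they weigh most in the sum. Their log2 fold changes were -0.27 and -0.01. Those of Cd5l and Mrc1, the 2 that DESeq2 called, were -0.59 and -0.63, beside -0.61 for Mmp12. The 4 tested endothelial markers had negative log2 fold changes (0 passed in edgeR, 4 at an unadjusted p under 0.05), and the 5 listed markers summed to 114 and 126 CPM in control and 94.2 and 98.6 CPM with EGCG. The 7 eosinophil and basophil markers summed to 1165 and 1040 CPM in control and 1011 and 870.5 CPM with EGCG. Of these, 4 were lower and 1 was higher without overlap between groups, where 21.2% and 21.5% of all tested genes were. In edgeR, 0 passed the threshold (at an unadjusted p under 0.05, 2 were lower and 1 was higher). Of all tested genes, 7.02% were lower and 5.22% higher at that unadjusted p. The 5 megakaryocyte and platelet markers all had negative log2 fold changes, with a median of -0.11 and 0 past edgeR's threshold (1 at an unadjusted p under 0.05). Other lists had positive medians of the log2 fold change. These were 0.10 for the 5 B cell, 0.11 for the 8 neutrophil and 0.17 for the 4 tested erythroid markers. For the 4 tested T and NK cell markers the median was 0.03, and for the 3 tested epithelial markers of 4T1 cells 0.57. Of these markers, 0 passed edgeR's threshold or that of DESeq2. At an unadjusted p under 0.05, 1 B cell, 1 neutrophil and 1 erythroid marker were higher, and 1 epithelial marker was higher and 1 lower. The epithelial marker Cdh1, with 294 to 402 counts, had a log2 fold change of -0.26. The value was 0.57 for Krt18, with 10 to 24 counts, and 0.63 for Epcam, with 59 to 99. The 2 listed epithelial markers that were not tested were Krt8, with 0 to 2 counts, and Krt19, with none. The neutrophil sum was 46559 and 57155 CPM in control and 65910 and 56383 CPM with EGCG. Of the 6 monocyte markers the sum was 1515 and 1519 CPM in control and 1451 and 1522 CPM with EGCG, and that of the fibroblast markers was 3.01 CPM in control replicate 1 and 1.16 to 1.23 CPM in the others. The part of these cells in the levels of Mmp12, Mmp14 and Mmp19 was not tested.

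**Figure D5:**
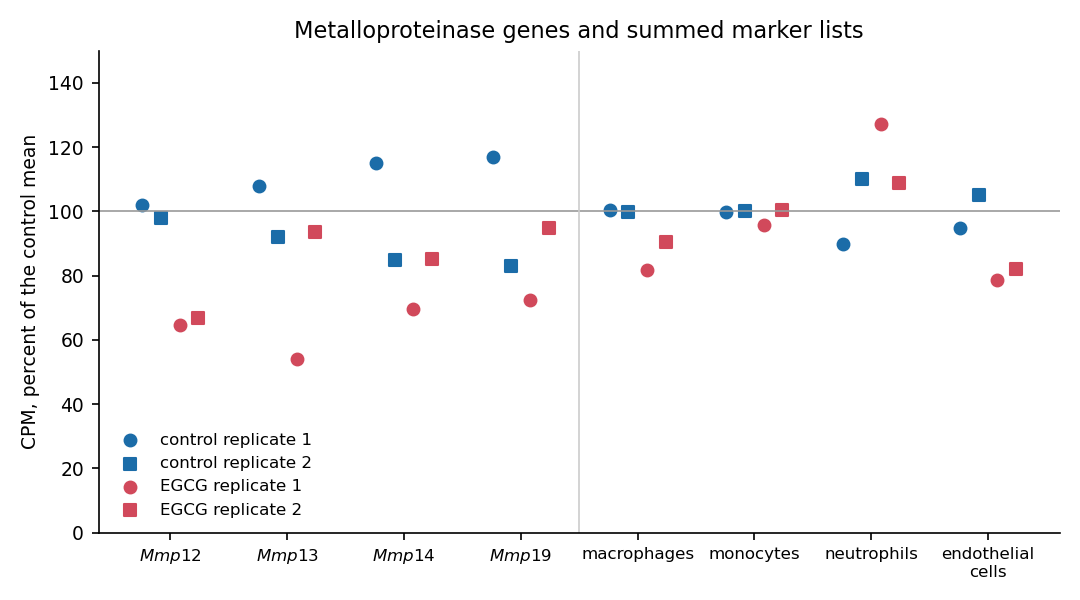
CPM of Mmp12, Mmp13, Mmp14 and Mmp19, and summed CPM of marker lists, as a percent of the control mean, 1 point per library (blue control, red EGCG). Mmp12 lies at 64.5% and 66.7% with EGCG, the macrophage sum at 81.7% and 90.6%, and the monocyte sum near 100%. Adgre1 and Cd68 make the largest parts of the macrophage sum.

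The profile of Mmp12 over the 4 libraries was compared with those of 13626 genes with at least 10 counts in every library, by the root-mean-square difference of centered log2 CPM. The closest were Carf (0.0307), with 110 and 102 counts in control and 70 and 73 with EGCG, Col5a3 (0.0313), with 84 and 83 against 55 and 54, and Gm14373 (0.0394), with 75 and 71 against 50 and 49. The likeness is a description, and Mmp12 itself set the profile.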

How the data were processed

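RNA was sequenced in 4 samples of sorted MDSCs. The authors used STAR 2.6.0c (GRCm38) for alignment and featureCounts 1.6.2 with Ensembl release 91, without strand, for counting, and deposited raw counts. How reads shared by genes were treated is not given in the sources used here.

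From these counts, genes were filtered with filterByExpr (minimum count of 10), scaled by TMM and compared in edgeR 4.0.16 (legacy quasi-likelihood test, no block, Benjamini-Hochberg adjustment over 14682 genes, threshold 0.05), which was tested on simulated data. Standard errors are the log2 fold change divided by the square root of F. Lengths and positions came from GENCODE M21, which held 53274 of the 53465 identifiers. The symbol Itgam has 2 identifiers in the file, of which ENSMUSG00000030786 was used. The members and lists were chosen with earlier results of these data known. The genes named are the members, the relatives past the threshold, up to 3 of each list by smallest p or highest level, and the 3 closest to Mmp12; others (Eln, Furin, Timp4 and the markers among them) were named after their values were seen. A gene that the rule names is not reported here. Alternatives were other filters and scalings, DESeq2 1.42.0, a replicate block, a length correction (loess, span 0.4) and each library left out. Figures were drawn with matplotlib 3.10.9.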

Additional observations from a re-analysis of the deposited data

How the results depend on the processing

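Over all tested genes, 20 were lower and 2 higher with EGCG. No gene passed in either direction without a filter on low counts, and 0 relatives passed (by edgeR, 1018 lower and 777 higher genes at an unadjusted p under 0.05). A minimum count of 30 gave 9 lower and 1 higher, upper-quartile scaling 9 lower, library size only 135 lower and 16 higher, and DESeq2 50 lower and 14 higher. The length correction gave 3 lower genes and 2 relatives, where 4 relatives passed in the reported fit. With the replicate block, 24 genes were lower and 6 higher. Over the tested genes, the difference between the 2 control replicates had a correlation of 0.03 with that between the 2 EGCG replicates. Whether the numbers pair the samples is not given in the labels or the methods, and a low value cannot decide it. Leaving out each of the 4 libraries gave 72 to 235 lower genes, 5 to 119 higher genes and 4 to 9 relatives. The causes of these shifts were not tested.

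For the 9 members, 4 of 107 log2 fold changes under the alternatives moved by more than the spread between replicates: Mmp9 was 0.11 with library size only and 0.17 without EGCG replicate 1, Mmp12 was -0.53 with the length correction, and Timp1 was 0.54 without control replicate 2. Mmp9, Mmp12, Mmp14, Timp2 and Adam8 kept their sign throughout. Mmp8, Mmp19, Mmp25 and Timp1 did not keep it, each changing sign in at least 1 setting. Timp1 is limited by its 8 to 16 counts.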
